A study of Mus musculus with 23 samples.

Results

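Collagens are the main structural proteins of the extracellular matrix, and the 41 genes described here are the collagen genes of the deposited table other than the 3 of type V (Col5a1, Col5a2 and Col5a3). They were taken by symbol (Col, a number, a, a number), without use of any measured value, from 21264 listed genes. They comprise 8 fibrillar genes, 6 of type IV, 6 of type VI, 9 of the FACIT class, 3 network-forming, 2 multiplexin and 4 transmembrane genes, and 3 others. Of the 41 genes, 35 reached a mean of at least 5 CPM (reads scaled to library size) in at least 1 group, and 10 had 0 reads in at least 1 library.

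RNA was sequenced in bulk from 23 libraries of mouse cells of the iPax3 line, myogenic progenitors derived from pluripotent stem cells. Cultured progenitors gave 4 control libraries (genotype WT) and 3 N1OE libraries, which overexpress NICD1, the intracellular part of the Notch1 receptor that enters the nucleus. Satellite cells (muscle stem cells) derived from the donor were re-isolated after engraftment and gave 9 control libraries, 4 N1OE libraries and 3 N1KO libraries with a Notch1 knockout. Host strain, ages, the promoter driving NICD1 and whether a line is 1 clone are not stated in the labels. RNA of cultured cells came from Trizol and entered TruSeq stranded mRNA libraries, whereas that of re-isolated cells went through Buffer RLT, beads and low-input cDNA made into Nextera XT libraries. Setting and library kit therefore cannot be told apart. The labels do not say that replicates were separate cultures or animals, so the p-values below speak only of the spread among these libraries, which may be technical.

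Libraries held 11637817 to 29154176 reads in listed genes. Notch1 read 61.3 to 105 CPM in cultured controls and 297 to 370 CPM in cultured N1OE, and 98.1 to 257 CPM in re-isolated N1OE. It read 15.6, 19.8 and 52.6 CPM in N1KO against 14.9 to 174 CPM in re-isolated controls, so that 1 control library lay below all N1KO libraries. Whole-gene reads cannot tell the deleted or overexpressed part. Pax7, which defines satellite cells, read 0 to 0.891 CPM in culture and 11.5 to 154 CPM in all re-isolated libraries. The column headers of the table carry the letters GoF, not explained in the labels, in re-isolated controls 1, 4, 7, 8 and 9 (called marked here) and not in controls 2, 3, 5 and 6 (unmarked). By its description control 7 belongs with the unmarked ones. In culture all 4 controls and N1OE 1 carry the letters and N1OE 2 and 3 do not, and no re-isolated N1OE or N1KO library carries them, so outside the re-isolated controls the mark goes largely with genotype. The number of genes with 1 read, divided by the number with 2 reads, was 1.08 to 1.5 in unmarked controls and 1.25 to 1.40 in N1KO, whereas re-isolated N1OE libraries gave 4.18 to 6.82 and marked controls 4.17 to 5.91. Comparisons of re-isolated N1OE and N1KO with re-isolated controls are therefore given over all 9 and within each set. Cultured control 4 stood apart in Col1a1, and cultured N1OE 2 and 3 resembled each other far more (chi-square per degree of freedom 3.31) than either resembled N1OE 1 (29.7 and 35.0).

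As background, each collagen chain winds with others of its kind into a triple helix. Fibrillar collagens are cleaved outside the cell and align into fibrils, FACIT collagens sit on the surface of fibrils, type IV forms the sheet-like network of basement membranes, and type VI forms beaded filaments between the basement membrane and the interstitial matrix. In muscle, satellite cells lie beneath the basement membrane of the fibre, type I and type III collagens fill the interstitium and are made largely by fibroblast-like cells, and type VI collagen is part of the satellite cell niche. Notch signalling keeps satellite cells quiescent, and several collagen genes are known as its targets in muscle stem cells, those of type V among the best studied.

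Promoters are shown for the type IV pair that rose together in cultured N1OE and for Col6a6, which was higher in re-isolated N1OE than in N1KO. Col4a1 (chr8:11312777-11313076, minus strand) and Col4a2 (chr8:11312555-11312854, plus strand) are transcribed away from each other from starts 21 bases apart. Their windows, from 250 bases before to 50 after each start, share 78 bases, which are in capitals and are exact reverse complements. In the window of Col6a6 (chr9:105828036-105828335, minus strand) the capitals mark TGGGAA on either strand, the core motif bound by RBPJ, the DNA-binding partner of NICD1. Sequences are from RefSeq on GRCm38.p6, read 5′ to 3′ on the strand of the gene.
Col4a1: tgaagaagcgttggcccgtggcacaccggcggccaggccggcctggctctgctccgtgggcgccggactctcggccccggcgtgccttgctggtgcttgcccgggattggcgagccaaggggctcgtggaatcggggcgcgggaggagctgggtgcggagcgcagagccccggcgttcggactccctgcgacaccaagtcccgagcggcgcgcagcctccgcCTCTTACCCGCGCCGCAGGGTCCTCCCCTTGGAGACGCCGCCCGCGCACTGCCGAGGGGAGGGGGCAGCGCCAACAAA
Col4a2: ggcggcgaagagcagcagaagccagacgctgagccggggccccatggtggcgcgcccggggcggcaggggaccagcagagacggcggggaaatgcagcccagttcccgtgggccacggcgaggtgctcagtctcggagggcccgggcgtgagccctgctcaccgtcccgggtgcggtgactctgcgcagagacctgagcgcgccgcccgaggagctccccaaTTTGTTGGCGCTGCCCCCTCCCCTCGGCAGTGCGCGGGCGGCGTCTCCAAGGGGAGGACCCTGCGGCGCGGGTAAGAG
Col6a6: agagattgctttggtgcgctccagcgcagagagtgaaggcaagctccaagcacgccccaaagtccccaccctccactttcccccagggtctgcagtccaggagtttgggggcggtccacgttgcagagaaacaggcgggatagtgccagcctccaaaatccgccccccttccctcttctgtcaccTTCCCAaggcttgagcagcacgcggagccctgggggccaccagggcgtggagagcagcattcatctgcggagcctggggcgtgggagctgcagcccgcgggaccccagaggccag
Of the 41 genes, 33 matched a RefSeq promoter. TGGGAA, searched on both strands, was in 12 of the 33 genes and in 25.56% of 32851 promoters of the same length. A collagen gene counts if any of its windows holds the motif, whereas the percentages are over single promoters, so they are unlike measures. TGGGAA was in neither window of the type IV pair. The genes with it include Col18a1, which rose in cultured N1OE, and Col4a5, which fell there. CCAAT, on both strands, was in 12 of 33 and in 37.41% of all, with Col4a1 and Col4a2 among the 12. GGGCGG, on both strands, was in 20 of 33, the same pair among them, and in 35.66% of all. A match describes letters in a window and not a bound site. Exons of Col4a1 and Col4a2 overlap on opposite strands by 22 bases in GENCODE M21, and the sources used here do not say whether counting used strand.

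The collagen genes took 0.366 to 0.939% of all reads in cultured controls, 0.726 to 0.932% in cultured N1OE, 0.589 to 1.62% in re-isolated N1OE, 1.91 to 5.49% in N1KO and 0.825 to 3.19% in re-isolated controls. By group mean the highest levels per kilobase of transcript in culture were those of Col4a1, Col18a1 and Col4a2, all chains of basement membranes or their associated proteins. In cultured control 4, however, Col1a1 reached 390 CPM per kilobase, above the level of Col4a1 in any cultured control (at most 232). In the re-isolated controls the highest group means were those of Col3a1, Col1a1 and Col6a1. In bulk samples fewer cells of a type and less RNA per cell cannot be told apart.

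**Figure D1:**
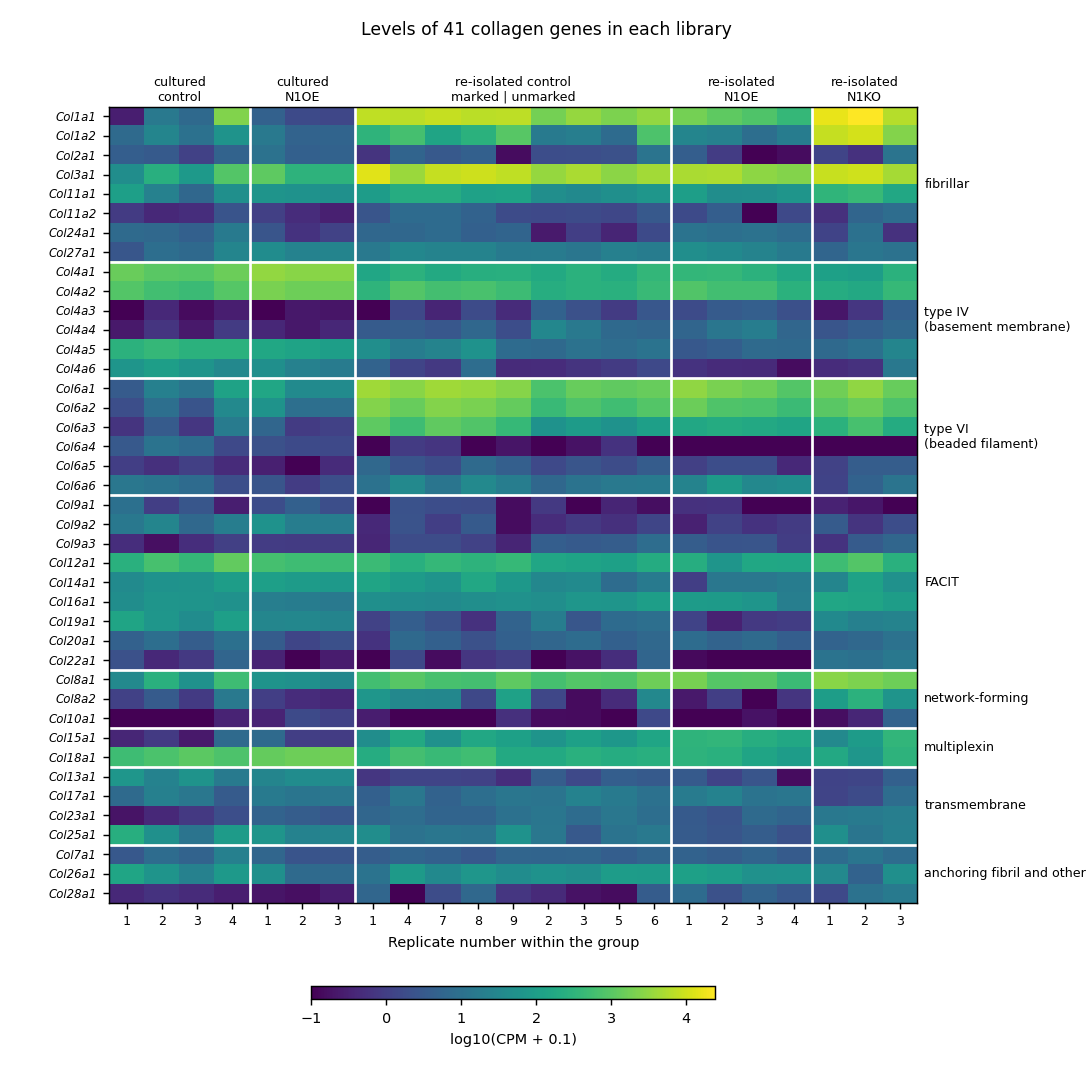
Level of each of the 41 collagen genes (rows, grouped by class) in each of the 23 libraries (columns, by replicate number within the group, marked re-isolated controls before unmarked ones), as log10(CPM + 0.1). Col4a1, Col4a2 and Col18a1 are bright in culture, while Col1a1, Col3a1 and type VI chains are bright in re-isolated cells. Col1a1 is also high in cultured control 4 (2312 CPM).

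By class, summed CPM per kilobase of transcript, type IV made up 27.2 to 50.9% of the collagen sum in cultured controls and 53.8 to 56.2% in cultured N1OE, but 5.91 to 7.92% in re-isolated N1OE, 0.452 to 3.14% in N1KO and 1.36 to 5.04% in re-isolated controls. Fibrillar genes held 39.2 to 48.7% in re-isolated N1OE, 52.0 to 64.8% in re-isolated controls and 65.5 to 80.6% in N1KO, ranges that do not overlap. Type VI ran in the other order, with 29.7 to 36.4% in re-isolated N1OE, 19.5 to 34.2% in the controls and 9.58 to 15.7% in N1KO. FACIT genes held 9.94 to 14.3% in cultured controls and 6.14 to 6.76% in cultured N1OE, and between 1.08 and 2.30% in all re-isolated libraries. These shares are descriptions, without a test, and a rise of 1 class lowers the share of the others.

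**Figure D2:**
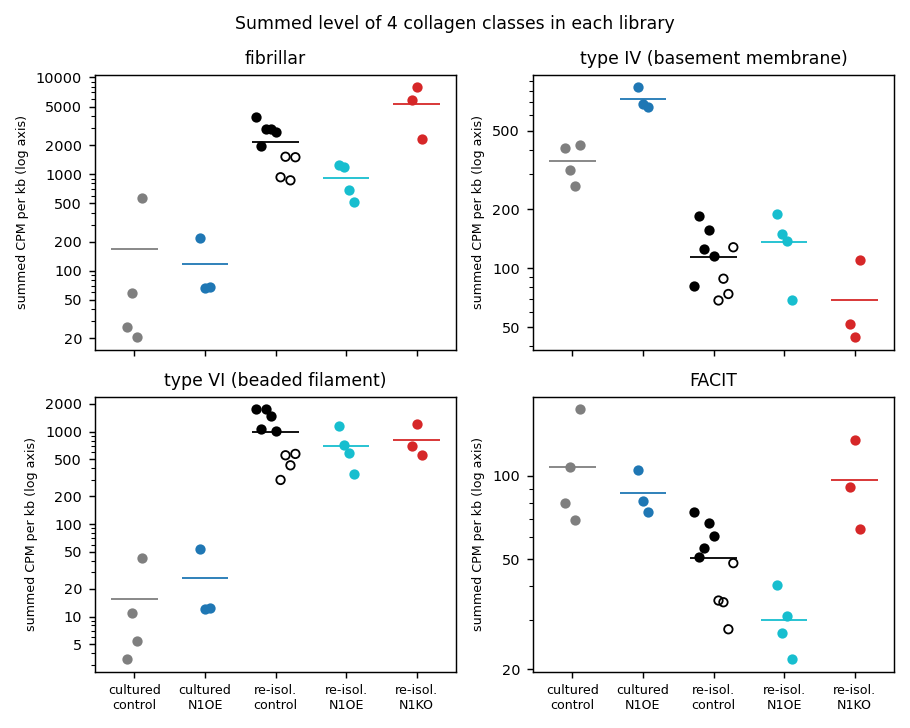
Summed level of the fibrillar, type IV, type VI and FACIT genes in each library, as CPM per kilobase of transcript on a log axis, with a line at each group mean and open circles for unmarked controls. Fibrillar sums reach 2306 to 7964 in N1KO against 514 to 1251 in re-isolated N1OE, and type IV sums 664 to 836 in cultured N1OE against 263 to 422 in cultured controls.

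Type I collagen is built from 2 chains encoded by Col1a1 and 1 encoded by Col1a2 (Col1a1 on chromosome 11, Col1a2 on chromosome 6), yet the pair was not read in step. Per kilobase of transcript, the level of Col1a1 over that of Col1a2 was 1.78, 2.04 and 2.24 in the N1KO libraries. In re-isolated N1OE it was 58.4, 45.3, 82.6 and 19.1. Over the 9 re-isolated controls it ran from 3.79 to 244 with a median of 21.8. No re-isolated control or N1OE library came down to the N1KO values. In culture the ratio was 0.0227, 0.489, 0.604 and 36.4 in controls and 0.285, 0.264 and 0.223 in N1OE, so that cultured control 4 stood apart from the other cultured libraries. Col1a1 was the more even of the pair across re-isolated controls, at 1804 to 8145 CPM, while Col1a2 ran from 7.73 to 973 CPM.

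**Figure D3:**
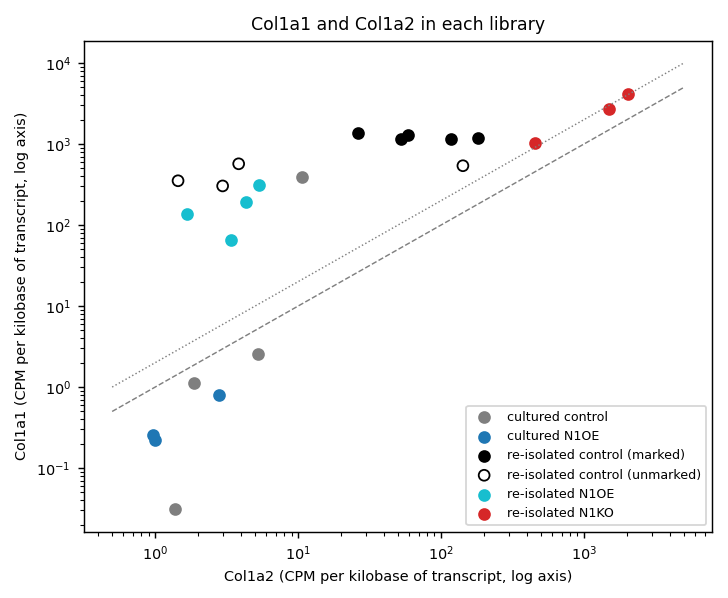
Col1a1 against Col1a2 in each of the 23 libraries, both in CPM per kilobase of transcript on log axes; the dashed line marks equal levels and the dotted line 2 Col1a1 per Col1a2. The 3 N1KO libraries lie along the dotted line, at ratios of 1.78 to 2.24, and all re-isolated control and N1OE libraries lie above it.

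The level of Tnmd, which marks tendon cells, is given beside this. It was 239, 1123 and 229 CPM in N1KO and 0 to 0.519 CPM in re-isolated N1OE. In the controls it was 33.6 to 38.8 CPM in numbers 1, 4, 6 and 7. It was 6.12 and 5.35 CPM in numbers 8 and 9, and 0 to 1.0 CPM in numbers 2, 3 and 5. Those 3 controls also had the lowest Col1a2, but the other controls did not keep this order. Control 9 had the highest Col1a2 (973 CPM), while control 7, with 33.6 CPM of Tnmd, read 140 CPM of Col1a2. The part of Tnmd in the Col1a2 levels was not tested.

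What NICD1 changed among these genes in cultured progenitors was asked first. Both main chains of type IV collagen rose about alike, with Col18a1, while Col4a5, Col16a1 and Col24a1 fell. Col4a1 read 1427, 999, 912 and 1533 CPM in controls and 3290.0, 2759.8 and 2667 CPM in N1OE. Col4a2 read 899, 564, 477 and 914 CPM in controls and 1972, 1588 and 1559 CPM in N1OE. Every N1OE library was above every control in both. The log2 fold changes were 1.28 ± 0.21 (SE, adjusted p = 0.0145) and 1.31 ± 0.25 (adjusted p = 0.0241), by limma with Benjamini-Hochberg adjustment over all tested genes, as for every adjusted p here, with n = 3 and 4. The ratio of Col4a1 to Col4a2 per kilobase was 1.55 to 1.86 in controls and 1.63 to 1.69 in N1OE. Col18a1, a multiplexin of basement membranes that releases endostatin, read 518, 736, 1063 and 755 CPM in controls and 1281, 1611 and 1693 CPM in N1OE, again without overlap (1.03 ± 0.24, adjusted p = 0.0365).

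The type IV chain Col4a5, which is used in other type IV trimers, moved the other way. It read 292, 395, 274 and 282 CPM in controls and 165, 136 and 105 CPM in N1OE (-1.20 ± 0.19, adjusted p = 0.0128). Per kilobase it stood at 0.186 to 0.400 of Col4a1 in controls and at 0.0400 to 0.0508 in N1OE. Col16a1, a FACIT collagen, read 42.7, 65.9, 60.4 and 54.2 CPM in controls and 19.8, 18 and 14.6 CPM in N1OE (-1.67 ± 0.18, adjusted p = 0.00402). The minor fibrillar gene Col24a1 read 7.26, 6.42, 4.46 and 16.1 CPM against 2.57, 0.503 and 1.07 CPM (-2.70 ± 0.62, adjusted p = 0.0363). In all 3 the groups did not overlap. N1OE 1, which alone of the N1OE libraries carries the header mark of the controls, lay beyond all 4 controls in each of the 6 genes, but a single library gives no test within the mark. With N1OE 2 and 3 only, Col4a5, Col16a1 and Col24a1 passed and Col4a1, Col4a2 and Col18a1 kept their direction but lost their calls, so mark and genotype cannot be told apart there.

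In this comparison 10.8% of all tested genes were called (4.73% up, 6.03% down), and 6 of the 32 tested collagen genes (18.8%), 3 up and 3 down. The median log2 fold change was -0.17 over these 32 and 0.07 over all tested genes. Low levels kept 9 genes out of the test (Col11a2, Col9a3, Col15a1, Col10a1, Col4a4, Col28a1, Col22a1, Col4a3 and Col6a5). The main fibrillar and type VI chains varied widely between cultured libraries and did not pass. Col1a1 read 0.184, 15.3, 6.68 and 2312 CPM in controls and 4.70, 1.51 and 1.32 CPM in N1OE (-2.83 ± 2.72, adjusted p = 0.502). Col3a1 read 44.6, 251, 83.5 and 879.8 CPM against 1119, 301 and 308 CPM (1.47 ± 1.03, adjusted p = 0.353). Control 4 was the highest control in both, and N1OE 1 the highest N1OE library.

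Among the other chains, differences that did not pass were -1.31 for Col1a2, 1.74 for Col6a1, 1.45 for Col6a2, -0.36 for Col6a3, 0.02 for the FACIT gene Col12a1, -1.48 for Col8a1, -0.77 for Col25a1 and -2.23 for Col26a1. Of the genes around collagen, 1 of 19 tested for modification and folding fell (P3h2, a prolyl hydroxylase, by 2.09). Of 12 for processing and cross-linking 2 fell (the lysyl oxidases Loxl2 and Loxl4, by 2.26 and 3.86 in log2). Of 5 tested proteoglycans, 13 receptors and 7 breakdown genes limma called 0, with 2, 5 and 1 at an unadjusted p under 0.05. The 13 fibro-adipogenic markers summed to 488 to 933 CPM in controls and 149 to 170 CPM in N1OE. Gsn made up most of both, with means of 555 and 149 CPM. In N1OE Lum, Smoc2, Cxcl14 and Mfap5 were at 0. Smoc2, Cxcl14 and Mfap5 averaged only 0.268, 1.16 and 0.0446 CPM in controls too. Of the 4 fibro-adipogenic markers tested, 2 fell (Gsn -1.83 and Ly6a -3.42). Among satellite cell and myoblast markers Des (-3.66) and Myod1 (-2.81) fell and Cdh15 (1.51) rose. The part of these markers in the collagen changes was not tested. The count of 6 became 3 without N1OE 1 or without control 2, 1 without N1OE 2 or without N1OE 3, and 11 without control 4. Col16a1 was called in all alternatives run.

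Among re-isolated cells, N1OE was compared with control to ask the same after engraftment. The type I chain Col1a1 fell, and so did Col14a1, Col19a1 and Col25a1. The type IV pair did not pass. Col1a1 read 1854, 1153, 818 and 385 CPM in N1OE. In the 9 controls it ran from 1804 through a median of 6762 to 8145 CPM. Only N1OE 1 lay above the lowest control. The log2 fold change was -2.32 ± 0.53 (adjusted p = 0.00982, n = 4 and 9). It kept its direction within each control set, at -3.00 ± 0.47 (adjusted p = 0.000209) against the marked controls and -1.48 ± 0.48 (adjusted p = 0.0365) against the unmarked ones. The call held in 23 of 26 alternatives and was lost with controls lacking GoF in the description, with the replicate block and without N1OE 4 (adjusted p at most 0.0738).

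Col25a1, a transmembrane collagen known for its part in muscle innervation, read 3.36, 2.48, 3.69 and 2.02 CPM in N1OE and from 3.05 through 12.9 to 54.5 CPM in controls, control 3 being the only one within the N1OE range (-2.34 ± 0.56, adjusted p = 0.0142). It fell against both sets (-2.86 and -1.69, adjusted p = 0.000824 and 0.0268). Col14a1, a FACIT collagen on fibril surfaces, read 0.892, 13.4, 13.7 and 18.1 CPM against 8.09 through 60.3 to 171 CPM (-2.69 ± 0.77, adjusted p = 0.0375). N1OE 1 was far below the rest. Its fall passed against the marked controls only (-3.72, adjusted p = 0.000554). Col19a1, a FACIT collagen of muscle and neural tissue, read 1.10, 0.206, 0.687 and 0.830 CPM against 0.485 through 3.93 to 19.4 CPM (-2.43 ± 0.72, adjusted p = 0.0458), and passed against the unmarked controls only (-3.56, adjusted p = 0.000348). Between the sets themselves Col14a1 was higher in the marked controls (2.31 ± 0.45, adjusted p = 0.00369), while Col19a1 did not pass (-2.03 ± 0.71, adjusted p = 0.0513). The call of Col19a1 against all controls held in only 8 of 26 alternatives and was lost without any 1 of the 4 N1OE libraries or of 6 controls (adjusted p up to 0.239). That of Col14a1 held in 15 of 26 and that of Col25a1 in 22 of 26. All 4 of these genes overlap between N1OE and the 9 controls.

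Of all genes tested in this comparison 7.06% were called (3.78% up, 3.29% down). Of 39 tested collagen genes limma called 4 (10.3%), 0 up and 4 down. At an unadjusted p under 0.05 these were 4 up and 10 down, and the share of all genes at that threshold was not taken. By limma-voom 0 were up and 1 was down. The count of 4 became 2 without N1OE 1, N1OE 3, control 4 or control 9, and 1 without N1OE 2 or N1OE 4. The medians were -0.56 over the collagen genes and 0.06 over all genes. Col6a4 and Col10a1 were not tested. Against the marked controls 10 collagen genes fell and 0 rose, where 11.7% of all genes were called (6.26% up, 5.47% down). Besides those above these were Col1a2 (-4.38), Col8a2 (-6.54), Col6a3 (-2.13), Col4a5 (-2.33), Col11a1 (-1.31), Col12a1 (-1.37) and Col6a2 (-1.21). Against the unmarked controls, where 19.5% of all genes were called (9.33% up, 10.1% down), 5 rose and 4 fell. The rises were Col24a1 (4.15), Col28a1 (3.34), Col6a6 (1.87), Col15a1 (1.48) and Col6a3 (1.21), and Col23a1 (-1.35) joined the falls.

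Col6a3 turned its sign with the control set. This chain, which joins Col6a1 and Col6a2 in type VI collagen, read 173, 205, 176 and 139.7 CPM in N1OE. The marked controls read 1143, 525, 1173, 857 and 403 CPM and the unmarked ones 56.0, 91.9, 55.7 and 108 CPM. N1OE lay between the sets without overlap with either. Over all 9 controls its difference was -0.65 ± 0.74 (adjusted p = 0.646).

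Most of the main chains of type I, III, IV and VI gave no call in N1OE against all controls. The differences were -2.89 ± 1.05 for Col1a2 (adjusted p = 0.0993), -0.63 ± 0.47 for Col3a1, 0.33 ± 0.31 for Col4a1, 0.30 ± 0.38 for Col4a2, -0.28 ± 0.47 for Col6a1 and -0.54 ± 0.45 for Col6a2. Col12a1 (-0.81), Col8a1 (0.21), Col18a1 (-0.68) and Col26a1 (0.56) did not pass either. Of genes around collagen, 2 of 20 for modification fell (P3h4 by 1.45 and Crtap by 1.31 in log2, both needed for prolyl or lysyl modification). In processing 3 of 12 fell, the procollagen protease enhancers Pcolce (-1.61) and Pcolce2 (-2.84) and the cross-linking enzyme Lox (-2.03), and Adamts3, a procollagen peptidase, rose (2.04). Of 13 proteoglycans 3 fell (Podn -2.32, Ogn -1.72, Fmod -4.01), of 14 receptors 1 (Itga11 -3.61), and of 11 breakdown genes 3 (Mmp3 -6.99, Timp1 -1.51, Mmp13 -5.70), while Timp3 rose (1.20).

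Markers of other cells differed here too. Endothelial markers summed to 54.6 to 112 CPM in N1OE and 8.58 to 51.8 CPM in controls, with 3 higher of 8 (Kdr 4.80, Emcn 3.33 and Esam 1.71 in log2), while Pecam1 (1.25) and Cdh5 (0.82) did not pass. Fibro-adipogenic markers summed to 2380 to 3565 CPM against 1063 to 12901 CPM, with 2 of 13 lower (Ly6a -4.30 and Clec3b -3.09). In the same list Dpt (1.48), Gsn (0.23), Dcn (-1.40) and Pdgfra (-1.33) did not pass. Macrophage markers summed to 19.3 to 92.3 against 35.5 to 332 CPM, with 2 of 7 lower (Cd68 -1.68 and Cd14 -1.74). Pericyte and smooth muscle markers summed to 882 to 1344 CPM in N1OE and 946 to 3146 CPM in controls. Of these Rgs5 (2.67) was higher and Acta2 (-1.28) lower. The glial gene Sox10 (3.13) was higher. Of 8 tenocyte and chondrocyte markers 1 was lower (Fmod -4.01, also counted among the proteoglycans above). Their part in the collagen changes was not tested.

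N1KO was set against the same controls to ask what loss of Notch1 changes. Col1a2 rose, the only collagen gene called over all 9 controls. It read 8075, 10797 and 2426 CPM in N1KO and 7.73 through 282 to 973 CPM in controls. The lowest N1KO library lay above the highest control (5.47 ± 1.16, adjusted p = 0.0356, n = 3 and 9). It rose against the marked (3.98 ± 0.55, adjusted p = 0.000765) and the unmarked controls (7.32 ± 0.96, adjusted p = 9.19e-05). Without N1KO 1 or N1KO 2, and with only these groups in the fit, the call was lost, and 0 collagen genes passed by limma. Then 10 up and 2 down, 6 up and 3 down, and 12 up and 3 down had an unadjusted p under 0.05, again without a share of all genes. On all libraries limma-voom called 3 up. The adjusted p of Col1a2 ran from 9.19e-05 to 0.246 over 25 alternatives, with the sign kept in all.

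In this comparison 0.657% of all tested genes were called (0.466% up, 0.191% down), and 1 of 39 collagen genes (2.56%). At an unadjusted p under 0.05 there were 12 up and 4 down, with no share of all genes at that threshold to set beside them. The count of 1 became 3 without N1KO 3 and 2 without control 6. The medians were 0.31 over the collagen genes and 0.01 over all. Its partner Col1a1 read 15938, 24452 and 6026 CPM in N1KO and overlapped the controls (1.55 ± 0.58, adjusted p = 0.263). Col3a1 read 8595, 9795 and 4497 CPM against 2778 through 5183 to 14066 CPM (0.33 ± 0.52, adjusted p = 0.875). Differences of -0.67 for Col4a1, -0.78 for Col4a2, -0.10 for Col6a1, -0.15 for Col6a2, 0.31 for Col6a3, 1.03 for Col12a1, 1.31 for Col8a1, -0.92 for Col18a1, 0.67 for Col25a1 and -1.36 for Col26a1 did not pass.

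Against the unmarked controls alone, where 7.29% of all genes were called (3.88% up, 3.41% down), 8 collagen genes rose and Col17a1 fell (-2.53). The rises were Col1a2, Col1a1 (2.39), Col11a1 (2.60), Col6a3 (2.16), Col8a2 (6.69), Col12a1 (1.73), Col28a1 (4.05) and Col22a1 (4.95). Against the marked ones, where 3.92% were called (2.59% up, 1.33% down), Col1a2, Col19a1 (3.82), Col22a1 (5.03) and Col16a1 (1.51) rose and Col6a6 fell (-2.27). Col1a2 and Col22a1 were called against both. Col22a1, a FACIT collagen of the junction between muscle and tendon, read 11.3, 9.58 and 14.1 CPM in N1KO and 0 to 5.54 CPM in controls (adjusted p = 0.0543 over all 9).

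Around collagen, 1 of 20 modification genes rose in N1KO over all controls (P3h3, 1.73), 1 of 12 processing genes (Loxl3, 2.13), and 2 of 11 breakdown genes (Timp2, 2.07; Ctsk, which degrades type I collagen, 4.02). Of 13 proteoglycans and 14 receptors limma called 0, with 8 and 3 at an unadjusted p under 0.05. Some markers of other cells differed as well. Fibro-adipogenic markers summed to 8180 to 18649 CPM in N1KO and 1063 to 12901 CPM in controls, with 0 of 13 called. Tenocyte and chondrocyte markers summed to 1285 to 5778 against 686 to 2070 CPM, with 1 of 8 higher (Comp). Endothelial markers summed to 64.6 to 170 against 8.58 to 51.8 CPM, with 5 of 8 higher. Their part in the collagen values was not tested.

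Between re-isolated N1OE and N1KO, groups with opposite changes to Notch1, more collagen genes passed than for either group against all 9 controls. The type I genes Col1a1 and Col1a2, the type XI gene Col11a1 and the FACIT genes Col12a1, Col19a1 and Col22a1 were lower in N1OE, while Col6a6, Col17a1 and Col27a1 were higher. In all, 3 were higher and 9 lower of 39 tested (30.8%), against 7.35% of all genes called (2.92% higher, 4.43% lower). These 12 are among 16 collagen genes without overlap between the groups. The share of all genes without overlap was not counted. The medians were -0.96 over the collagen genes and 0.07 over all. N1OE and N1KO share no library with each other, but each of them also enters a comparison with the controls above, so these calls are not independent of those.

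Col1a2 read 28.6, 22.9, 8.94 and 18.2 CPM in N1OE against the N1KO values above (-8.36 ± 1.33, adjusted p = 0.000688, n = 4 and 3). Col1a1 differed less (-3.87 ± 0.67, adjusted p = 0.00141), the highest N1OE library at 1854 CPM and the lowest N1KO library at 6026 CPM. Col11a1, whose chain sits within type I and II fibrils, read 103, 42.7, 45.8 and 63.9 CPM in N1OE and 328, 434 and 173 CPM in N1KO (-2.28 ± 0.57, adjusted p = 0.017). Col3a1, the type III chain, did not pass (-0.96 ± 0.59, adjusted p = 0.341), with 5069, 5365, 2937 and 2411 CPM in N1OE. Per kilobase Col3a1 stood at 2.91 to 6.68 times Col1a1 in N1OE and at 0.427 to 0.795 times in N1KO.

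Col19a1 read 35.9, 22.2 and 25.0 CPM in N1KO, and at most 1.10 CPM in N1OE (-5.35 ± 0.92, adjusted p = 0.00139). Col22a1 had 638 reads over the N1KO libraries and 1 read over the N1OE libraries. Scaled for depth this is a ratio of 929, with a 95% interval for counting error from 166 to 36750.3 (limma adjusted p = 0.00189). Col12a1, the FACIT gene with the highest mean, read 225, 64.8, 161 and 152 CPM in N1OE and 511, 883 and 263 CPM in N1KO (-1.84 ± 0.53, adjusted p = 0.0371). Col8a2, which forms hexagonal networks, read 0.137, 0.877, 0 and 0.570 CPM in N1OE and 98.7, 285 and 60.5 CPM in N1KO (-8.74 ± 1.90, adjusted p = 0.00698). The N1OE libraries held 0 to 17 reads of Col8a2, and limma-voom did not call it (adjusted p = 0.192). Its relative Col8a1 read 1919.9, 916, 982 and 476 CPM and 2636, 2107 and 1550.5 CPM and did not pass (-1.11, adjusted p = 0.145). Of the transmembrane genes 2 were lower in N1OE as well, Col25a1 (48.0, 12.2 and 20.9 CPM in N1KO; -3.01 ± 0.71, adjusted p = 0.0124) and Col23a1 (-1.98 ± 0.47, adjusted p = 0.0128).

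**Figure D4:**
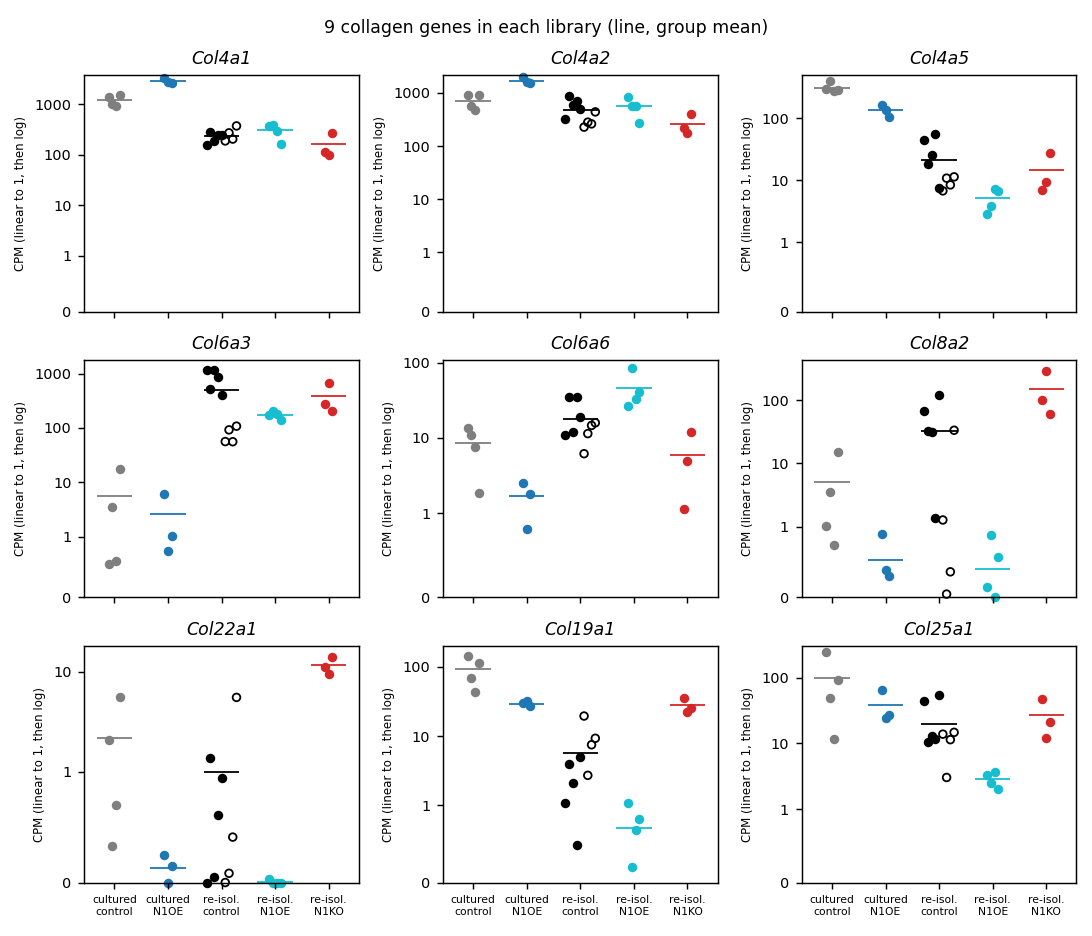
CPM of 9 collagen genes in each library, on an axis linear up to 1 and logarithmic above, with a line at each group mean and open circles for unmarked controls. By group mean Col6a6 is highest in re-isolated N1OE (26.2 to 84.8 CPM, overlapping controls of up to 35.1 CPM) and Col22a1 and Col8a2 in N1KO (a control reaches 122 CPM of Col8a2), while Col6a3 in re-isolated N1OE lies between the marked and the unmarked controls.

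Col6a6 is a type VI chain that can take the place of Col6a3. It read 26.2, 84.8, 33 and 40.9 CPM in N1OE and 1.12, 4.90 and 12.0 CPM in N1KO (3.34 ± 0.66, adjusted p = 0.00392). Col17a1, a transmembrane collagen of hemidesmosomes, read 17.3, 24.0, 11.0 and 12.7 CPM in N1OE and 1.18, 1.60 and 8.43 CPM in N1KO (2.59 ± 0.64, adjusted p = 0.016). Col27a1, a minor fibrillar gene, read 45.6, 35.6, 25.7 and 16.9 CPM in N1OE and 5.73, 12.8 and 10.6 CPM in N1KO (1.65 ± 0.41, adjusted p = 0.0174). The main type IV and VI chains did not pass, at 0.99 for Col4a1 (adjusted p = 0.13), 1.07 for Col4a2 (0.184), -0.18 for Col6a1, -0.39 for Col6a2 and -0.96 for Col6a3. Col18a1 (0.24) and Col26a1 (1.92, adjusted p = 0.0964) did not pass either.

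**Figure D5:**
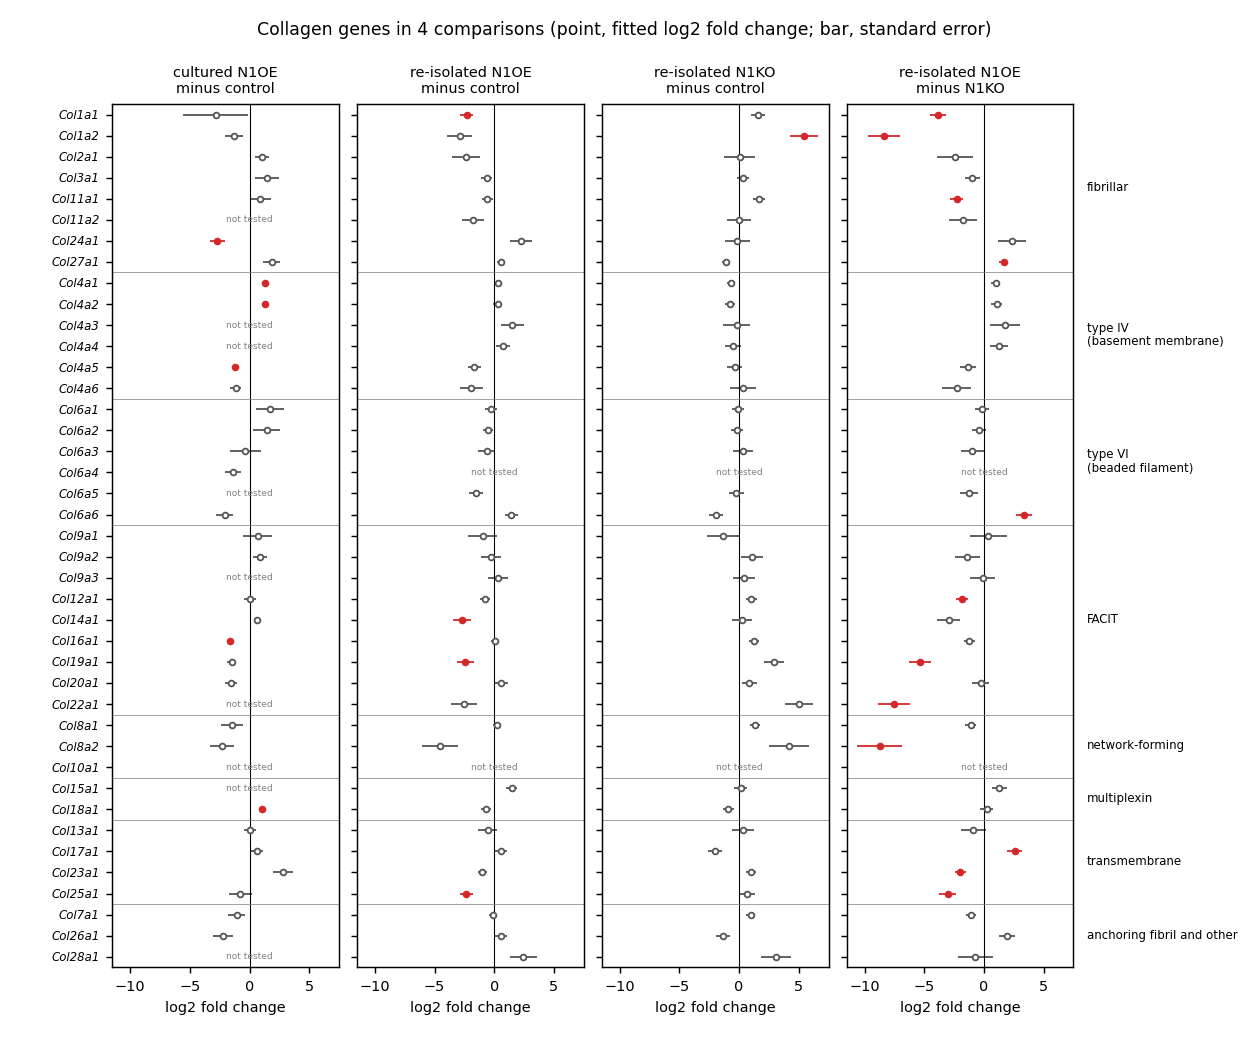
Fitted log2 fold change with its standard error for each collagen gene, by class, in 4 comparisons, from left to right the N1OE effect in culture, the N1OE effect after re-isolation, the N1KO effect and the contrast of N1OE with N1KO; filled red points passed an adjusted p of 0.05. The comparisons have 6, 4, 1 and 12 such points.

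Some genes around collagen were also lower in N1OE than in N1KO, and 0 of any of the lists passed as higher. Lower were 5 of 20 modification genes, among them P3h3 (-2.53), Crtap (-2.10), P4ha3 (-4.60) and P3h4 (-1.60), and 4 of 12 processing genes (Pcolce -2.56, Loxl3 -2.23, Lox -2.03, Tll1 -3.74). So were 6 of 13 proteoglycans (Ogn -3.07, Podn -3.16, Fmod -6.29 and Omd -4.03 among them), the collagen-binding integrin Itga11 (-5.61) of 14 receptors, and 6 of 11 breakdown genes (among them Ctsk -5.73, Timp2 -2.97, Mmp2 -3.68 and Mmp3 -8.18).

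Some cell type markers again differed here. Fibro-adipogenic markers summed to 2380 to 3565 CPM in N1OE and 8180 to 18649 CPM in N1KO, with 0 higher and 6 lower of 13, among them Ly6a (-5.48). Pdgfra, which defines these cells, read 0.720 to 9.28 CPM in N1OE and 8.26 to 42.2 CPM in N1KO. It did not pass (-3.19, adjusted p = 0.118), and neither did Dpt (-0.18) or Gsn (-0.74). Satellite cell and myoblast markers summed to 2487 to 3502 CPM in N1OE and 1319 to 2780 CPM in N1KO. Of these Calcr (4.01) and Chrdl2 (5.08) were higher in N1OE, while Pax7 (1.21) and Des (-0.28) did not pass. Tenocyte and chondrocyte markers summed to 266 to 863 and to 1285 to 5778 CPM, with 0 higher and 5 lower of 8. Their part in the differences was not tested. The count of genes with 1 read against genes with 2 reads also separates N1OE from N1KO as given above, and this difference between the libraries and the genotypes cannot be told apart. Leaving out 1 library gave 7 to 15 collagen calls, with 7 without N1KO 1, and Col1a1, Col1a2, Col19a1, Col22a1 and Col6a6 were called in all alternatives run.

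Whether the N1OE effect differed between re-isolated and cultured cells was tested as the difference of both effects. For Col6a6 the effect was higher in re-isolated cells (3.5 ± 0.91, adjusted p = 0.0296), and for Col23a1 it was lower (-3.83 ± 0.78, adjusted p = 0.00527). Cultured controls read 13.6, 11.0, 7.52 and 1.84 CPM of Col6a6 and cultured N1OE 2.52, 0.818 and 1.83 CPM. Re-isolated controls read 6.19 through 14.7 to 35.1 CPM, against the N1OE values above. Col23a1 read 0.0919, 0.327, 0.696 and 1.90 CPM in cultured controls and 5.05, 3.71 and 2.84 CPM in cultured N1OE. In re-isolated controls it read 5.33 through 8.13 to 13.5 CPM and in N1OE 3.33, 2.27, 7.22 and 5.24 CPM. Of all genes 3.27% were called in this test (2.36% higher, 0.91% lower), and 2 of 41 collagen genes (4.88%). Without cultured N1OE 2 or 3, cultured control 1 or 2, or re-isolated N1OE 2, Col6a6 lost its call and 1 was left. The medians were -0.78 over the collagen genes and 0.04 over all. The type IV pair, called in culture and not after re-isolation, did not differ by this test (Col4a1 -0.96 ± 0.46, adjusted p = 0.33; Col4a2 -1.01 ± 0.57, adjusted p = 0.438). Nor did Col1a1 (0.51 ± 2.0), Col1a2 (-1.58), Col3a1 (-2.10), Col6a1 (-2.02), Col6a2 (-1.99), Col6a3 (-0.29), Col12a1 (-0.82), Col8a1 (1.69), Col18a1 (-1.71), Col25a1 (-1.57) or Col26a1 (2.79) pass. Since a p over the threshold does not show that effects are alike, these are given as values.

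Re-isolated and cultured controls differed in 58.1% of all tested genes (24.1% higher, 33.9% lower) and in 25 of 40 collagen genes (62.5%), 15 higher and 10 lower in re-isolated cells, a share near that of all genes. The medians were 0.07 over the collagen genes and -0.23 over all. Among type VI genes 4 of 6 were higher and Col6a4 was lower, and among fibrillar genes 5 of 8 were higher. Col6a1 rose from 3.49, 22.5, 11.5 and 129 CPM in culture to 723 through 2622 to 4101 CPM (6.80 ± 0.71, adjusted p = 1.5e-06). Col6a2 differed by 7.54 ± 0.66 (adjusted p = 2.39e-07), Col6a3 by 6.92 ± 1.02 and Col3a1 by 5.08 ± 0.64, each without overlap. Col1a1 differed by 8.2 ± 1.51 (adjusted p = 0.000287), with cultured control 4 (2312 CPM) inside the re-isolated range, and Col1a2 did not pass (2.86 ± 1.21, adjusted p = 0.0537).

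Also higher in re-isolated controls were Col15a1 (6.93), a multiplexin of muscle and vessel basement membranes, Col4a4 (3.96), Col23a1 (3.95), Col8a1 (2.70), Col4a3 (2.61), Col6a5 (2.17), Col9a3 (2.10), Col11a2 (1.89), Col11a1 (1.59) and Col27a1 (1.27). Lower were the type IV chains Col4a1 (-2.35 ± 0.24, adjusted p = 1.39e-06), Col4a5 (-4.27) and Col4a6 (-5.65), the FACIT genes Col19a1 (-4.52), Col9a2 (-4.36) and Col12a1 (-1.17), and Col6a4 (-4.83), Col13a1 (-4.57), Col25a1 (-2.04) and Col18a1 (-1.34). With unmarked re-isolated controls only, the calls of Col11a1, Col11a2 and Col27a1 were lost. With marked ones only, those of Col9a3, Col12a1 and Col25a1 were lost. Col4a2 did not pass (-0.69 ± 0.36, adjusted p = 0.11), and neither did Col26a1 (-0.35). The head-to-head pair thus shifted in its ratio. Col4a1 per kilobase was 1.55 to 1.86 times Col4a2 in all cultured libraries and 0.314 to 0.941 times in all re-isolated ones. Around collagen, 11 rose and 1 fell of 20 modification genes, 5 and 2 of 12 processing genes, 12 and 0 of 13 proteoglycans, 6 and 3 of 14 receptors and 7 and 2 of 12 breakdown genes. Fibro-adipogenic markers were higher in 11 of 13, and the part of setting, kit and other cells in these values cannot be told apart.

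Among the re-isolated controls themselves, the marked and the unmarked libraries differed in 27.6% of all tested genes (13.6% higher, 14% lower) and in 14 of 38 collagen genes (36.8%), 11 higher and 3 lower in the marked set. The medians were 0.79 over the collagen genes and -0.00496 over all. Col6a3 showed the largest separation by p (3.34 ± 0.35, adjusted p = 0.000169, n = 5 and 4), with the values given above. Higher in the marked set were also Col6a1 (1.57), Col6a2 (1.51), Col1a1 (1.52), Col1a2 (3.33), Col11a1 (1.64), Col24a1 (3.42), Col14a1 (2.31), Col12a1 (1.26), Col8a2 (4.50) and Col4a2 (0.96). Lower were Col9a3 (-2.51), Col4a4 (-1.83) and Col13a1 (-1.73). Col3a1 (1.05, adjusted p = 0.0611), Col4a1 (-0.19), Col8a1 (-0.29), Col18a1 (0.68), Col25a1 (1.17) and Col26a1 (-0.78) did not pass.

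The type IV pair shows the set in each library, since Col4a1 over Col4a2 per kilobase spanned 0.314 to 0.479 among the 5 marked and 0.762 to 0.941 among the 4 unmarked controls. In re-isolated N1OE this ratio was 0.432 to 0.678 and in N1KO 0.513 to 0.666. With control 7 counted by its description, 0 collagen genes passed by limma. Here 11 up and 2 down had an unadjusted p under 0.05, again without a share of all genes. Of genes around collagen, 7 rose and 3 fell of 20 for modification in the marked set, 6 and 0 of 12 for processing, 4 and 0 of 13 proteoglycans, 4 and 2 of 14 receptors and 3 and 0 of 11 breakdown genes. Fibro-adipogenic markers summed to 3634 to 12901 CPM in the marked and 1063 to 2431 CPM in the unmarked controls, with 4 higher and 0 lower of 13, and satellite cell and myoblast markers to 1517 to 2813 and 3105 to 3940 CPM, with 0 higher and 5 lower of 11. Their part in the collagen values was not tested.

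The genes that stayed low are Col9a1, Col10a1, Col11a2, Col4a3, Col6a5 and Col9a3, with under 5 CPM in every group mean. Col6a4, which encodes another type VI chain, read 1.42 to 11.2 CPM in the cultured libraries and had 0 reads in all re-isolated N1OE and N1KO libraries and in 4 of 9 re-isolated controls.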

How the data were processed

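Bulk RNA was sequenced from 23 libraries in 5 groups, taken from the sample titles. The submitters' processing notes name Trimmomatic 0.33, FastQC, featureCounts, edgeR and the mm10 genome. The aligner and the annotation are not given in the sources used here. Values deposited by the authors form a table of log2 CPM to which a small constant had been added, where -4.19 means 0 reads. Its steps gave back whole reads (tolerance 0.05) for all libraries. Whether values were adjusted before deposit is not known.

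The log2 values were tested as deposited. Genes reaching 1 CPM in 3 or more libraries of a fit entered limma 3.58.1 in R 4.3.3 (eBayes with trend, two-sided), with Benjamini-Hochberg adjustment over all tested genes and a threshold of 0.05. The 3 re-isolated groups shared 1 fit, the cultured groups were fitted alone, both control groups were fitted together, all 5 groups gave the difference of N1OE effects, and re-isolated controls alone gave marked against unmarked. Errors are limma standard errors. Counts at an unadjusted p under 0.05 have no share of all genes beside them, so they do not set listed genes against other genes. One read was worth 0.0343 to 0.0859 CPM, and intervals hold counting error only. Levels between genes are per kilobase of the longest principal transcript of GENCODE M21 (GRCm38/mm10). The fit was also run on simulated reads with changed genes, drawn with the same dispersion for every gene. That run does not show how the fit behaves where libraries of 1 group differ as the re-isolated controls do.

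Named in each comparison are every collagen gene past the threshold, the gene of highest mean in each class, and Col1a1, Col1a2, Col3a1, Col4a1, Col4a2, Col6a1, Col6a2 and Col6a3; of the lists around collagen, up to 4 members of smallest p. Some genes outside this rule are named for their levels. Dcn, Lum, Dpt and Fmod are in both the proteoglycan list and a list of cell type markers, so those counts are not separate. The members, lists and tests were chosen with earlier results of these data known. Alternatives were constants of 1 and 5 CPM, no filter or 5 CPM, median ratio scaling, limma-voom on recovered reads, array weights, the replicate number as a block, other control sets or fits, and leaving out each library.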

Additional observations from a re-analysis of the deposited data

Results flagged for a closer look

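In 105 sets of 4 to 9 libraries of 1 group and gene, 4 (3.81%) held a library far from the others, where chance gives about 1 in 20. Col14a1 read 0.892 CPM in re-isolated N1OE 1, against 13.4 to 18.1 CPM in the other N1OE libraries. Col20a1 read 0.518 CPM and Col26a1 11.4 CPM in re-isolated control 1, each the lowest of the 9 controls. Col22a1 read 0.0343 CPM in re-isolated N1OE 1, which is a single read where the other 3 N1OE libraries had 0.

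The N1OE effect differed between re-isolated and cultured cells, by a test of the difference itself (limma), for Col6a6 (3.5 in log2, adjusted p = 0.0296) and Col23a1 (-3.83, adjusted p = 0.00527). The setting goes with the library kit, and their parts cannot be told apart.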

How the results depend on the processing

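The calls of 5 of 12 collagen genes between N1OE and N1KO, 18 of 25 between settings, 1 of 6 in culture and 1 of 2 for the difference of effects held under every alternative run; of the 4, 1 and 14 calls in N1OE against control, N1KO against control and marked against unmarked, 0 did. All called genes kept their direction in all alternatives. The Col6a3 difference between N1OE and control, -0.65 and not called, reversed to 1.21 (adjusted p = 0.0222) with unmarked controls only. The cause of these moves was not tested.

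The 6 calls in culture became 15 with array weights, 10 with the replicate block, 1 without replicate 1 of both groups, and 1 to 11 leaving out 1 library. The 4 calls of N1OE against control became 2 without the filter, 1 with limma-voom, 1 with the replicate block, 10 with marked, 9 with unmarked and 8 with GoF-described controls, and 1 to 5 leaving out 1 library. The 1 call of N1KO against control became 3 with a constant of 1 or of 5 CPM, 2 without the filter, 2 with median ratio scaling, 3 with limma-voom, 10 with array weights, 3 with the replicate block, 5 with marked, 9 with unmarked, 4 with GoF-described and 3 with other-described controls, 0 with only both groups in the fit (12 up and 3 down at an unadjusted p under 0.05), and 0 to 3 leaving out 1 library. The 12 calls of N1OE against N1KO became 7 to 15 and the 25 between settings 20 to 25 leaving out 1 library. The 2 calls for the difference of effects became 1 with limma-voom, 6 with array weights, 6 with marked, 4 with unmarked and 5 with GoF-described controls, and 1 to 3 leaving out 1 library. The 14 between control sets became 0 with sets by description and 10 to 15 leaving out 1 library. The share of all genes called moves with such settings too. For N1OE against control it was 7.06% with all, 11.7% with marked and 19.5% with unmarked controls, and for N1KO 0.657, 3.92 and 7.29%. Collagen counts given without that share do not set collagen genes against other genes.

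Same-numbered libraries deviated together with correlations of -0.15 to 0.278, not over 0.1 in every pair, so the numbers were not taken to pair them. The replicate block gave 11 calls for N1OE against N1KO, 22 between settings and 2 for the difference of effects; marked and unmarked controls share no number. Where a gene had 0 reads, 3 reads, or 0.103 to 0.258 CPM, set what the depth could show.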
